A study of Mus musculus with 384 samples.

Results

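Granulocyte/macrophage progenitors (GMPs) fill their first secretory granules with serine proteases and myeloperoxidase, and 10 genes of this programme are described here in single GMPs with and without induction of BCR-ABL. The genes are the neutrophil serine proteases Elane, Prtn3, Ctsg and Prss57, the peroxidase Mpo, the protease inhibitors Serpinb1a and Cst7, the lectin Fcnb, and the membrane proteins Ms4a3 and Nkg7. They were taken by name, with earlier results of these data known, and are 10 of 46078 gene rows in the count tables. All 10 passed the filter on low counts. BCR-ABL is the fusion tyrosine kinase of chronic myeloid leukaemia. The BCR-ABL group holds 3 sets of wells (replicates 1, 2 and 4) from C57Bl/6 Scl-tTA::TRE-BCR/ABL mice, in which the transactivator tTA under control of Scl elements switches on the transgene once doxycycline is withdrawn. The protocol has these mice bred on 20 mg per L doxycycline and taken off it at 5 weeks of age, and does not say whether the Control mice had it too. The Control group is 1 set of C57Bl/6 GMPs with the treatment label control, and the labels do not say whether its mice carried either transgene. All sets were taken 5 to 6 weeks after induction and sorted as lineage-negative, c-Kit+, Sca-1-, CD34+ and FcγR+ cells. Marrow came from crushed limb and pelvic bones or from flushed leg bones, and which was used for a set is not given.

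Primary (azurophil) granules are made at the promyelocyte stage, before the secondary granules that carry lactoferrin. Elastase (Elane), proteinase 3 (Prtn3) and cathepsin G (Ctsg) are stored there as active enzymes after cathepsin C has removed their pro-peptides, and myeloperoxidase uses hydrogen peroxide to make hypochlorous acid. Serpinb1a, in the cytosol, inactivates neutrophil serine proteases, and cystatin F, the product of Cst7, inhibits cysteine cathepsins including cathepsin C. The transcription factors PU.1, C/EBPα, Runx1 and Myb are known to drive these genes, Gfi1 goes with the neutrophil fate and Irf8 with the monocyte fate.

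The 3 serine protease genes Prss57, Prtn3 and Elane lie in a cluster on mouse chromosome 10 (mm10), between 79781474 and 79888215, a span of 106.7 kb with 3.1 kb between Prtn3 and Elane. Ctsg lies on chromosome 14 (56099881 to 56102574), Mpo on chromosome 11 (87793581 to 87804413), Serpinb1a on chromosome 13 and Ms4a3 on chromosome 19. Fcnb and Cst7 are on chromosome 2 and Nkg7 is on chromosome 7. The promoters of the 4 genes with the most reads per length and of Fcnb, the gene that differed most between cells, are shown because the 10 genes were correlated across cells. RefSeq windows (GRCm38.p6, 250 bases before to 50 after the start) were found for 8 of the 10 genes, and Prss57 and Serpinb1a are named only. Capitals mark AGGAAG in either orientation (CTTCCT on the other strand), the core of sites bound by ETS factors such as PU.1. Elane is chr10:79886062-79886361 on the plus strand, Prtn3 chr10:79879417-79879716 on the plus strand, Ctsg chr14:56102525-56102824 on the minus strand, Mpo chr11:87793534-87793833 on the plus strand and Fcnb chr2:28084829-28085128 on the minus strand. The RefSeq start of Prtn3 lies inside the longer span that the mm10 annotation gives the gene.
Elane: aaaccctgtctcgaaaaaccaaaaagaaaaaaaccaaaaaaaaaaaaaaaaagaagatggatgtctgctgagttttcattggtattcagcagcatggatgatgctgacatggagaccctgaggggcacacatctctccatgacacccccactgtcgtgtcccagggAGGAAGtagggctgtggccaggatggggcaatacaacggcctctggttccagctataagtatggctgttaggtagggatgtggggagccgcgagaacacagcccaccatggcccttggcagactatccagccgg
Prtn3: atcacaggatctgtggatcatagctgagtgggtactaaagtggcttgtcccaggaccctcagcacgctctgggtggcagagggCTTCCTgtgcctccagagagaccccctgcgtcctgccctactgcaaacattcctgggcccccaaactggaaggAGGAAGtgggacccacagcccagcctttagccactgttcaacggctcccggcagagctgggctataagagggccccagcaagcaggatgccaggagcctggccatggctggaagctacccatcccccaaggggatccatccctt
Ctsg: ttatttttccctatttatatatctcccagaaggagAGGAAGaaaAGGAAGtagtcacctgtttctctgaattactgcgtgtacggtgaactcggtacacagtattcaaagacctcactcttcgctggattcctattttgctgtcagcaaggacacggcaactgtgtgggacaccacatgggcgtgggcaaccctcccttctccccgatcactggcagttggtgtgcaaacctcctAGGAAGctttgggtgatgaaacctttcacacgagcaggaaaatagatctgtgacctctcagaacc
Mpo: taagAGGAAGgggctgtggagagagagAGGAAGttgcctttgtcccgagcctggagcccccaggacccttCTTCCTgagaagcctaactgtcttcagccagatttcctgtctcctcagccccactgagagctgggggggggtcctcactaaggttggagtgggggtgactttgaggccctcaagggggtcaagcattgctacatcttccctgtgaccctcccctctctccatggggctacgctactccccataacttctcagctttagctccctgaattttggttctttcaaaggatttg
Fcnb: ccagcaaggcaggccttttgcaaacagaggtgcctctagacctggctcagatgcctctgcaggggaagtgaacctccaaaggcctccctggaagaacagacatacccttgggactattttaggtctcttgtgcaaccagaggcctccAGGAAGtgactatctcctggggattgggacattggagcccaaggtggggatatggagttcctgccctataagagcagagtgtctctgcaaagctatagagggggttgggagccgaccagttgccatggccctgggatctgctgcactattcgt
AGGAAG stood in 8 of the 8 windows, and in 35.4% of 32851 windows of all genes. It occurred once in the Elane window, at -84 from the start, and once in that of Fcnb, at -103. The Prtn3 window held it at -167 and -94, that of Ctsg at -215, -206 and -15, and that of Mpo at -246, -223 and -180. Of the other motifs searched on both strands, TTNNGNAA (C/EBP) was in 3 of 8 windows (Ms4a3, Fcnb and Cst7) against 40.7% of all, and AACNG (Myb) in 7 of 8 against 80.3%. TGTGGT (Runx) was in 3 of 8 (Ctsg, Cst7 and Nkg7) against 16.8%, and AAATCA (Gfi1) in 0 of 8 against 14%. Such matches describe letters in these windows and are not evidence of binding.

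Each cell was sorted into its own well and sequenced as full-length cDNA by SMART-seq2, without molecular identifiers. Of 384 wells, 323 were kept, with 76, 61 and 92 cells in BCR-ABL replicates 1, 2 and 4 and 94 in Control. Median gene reads per kept cell were 1649313, 2084608 and 1385349 in the BCR-ABL sets and 1200640 in Control. The sort genes fitted the label: Kit was read in at least 98.4% of cells of every set, Fcgr3 in at least 98.7%, and Ly6a (Sca-1) stood between 1.29 and 3.46 CPM (reads per 1000000 gene reads) in the set sums. Cd34 gave 146, 180 and 158 CPM in BCR-ABL sums, against 440 CPM in Control, and was read in 96.1, 93.4 and 83.7% of BCR-ABL cells and 100% of Control cells. Xist reached 5 CPM in 75 of 76, 0 of 61 and 3 of 92 BCR-ABL cells and in 94 of 94 Control cells, so the sets differ in a sex-linked transcript. The labels do not say that sets are separate animals, so p-values below measure only the spread between sets, which may be technical.

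The first question was how much of a GMP's RNA these genes take up. In the median cell the 10 genes together held 7.43, 6.19 and 7.63% of gene reads in BCR-ABL replicates 1, 2 and 4, against 5.91% in Control. The mean of the BCR-ABL medians exceeded Control by 1.17 percentage points, with an SD over the 3 sets of 0.783. In Irf8-positive cells alone the difference was 0.433 points and in Gfi1-positive cells alone 0.847 points. Single cells ranged from 1.40 to 12.9% in BCR-ABL and from 0.358 to 11.1% in Control. Cells above 10% numbered 8 of 76, 5 of 61 and 9 of 92 in the BCR-ABL sets and 1 of 94 in Control. Cells under 5% numbered 14, 16 and 8 in BCR-ABL, against 31 in Control. All 3 BCR-ABL medians lay above that of Control, replicate 2 only by a little. Scaled to spike-in RNA, all gene reads were 1.16 times as many per spike-in read in BCR-ABL (log2 0.22). The ratio relative to that shift was 1.42 for Elane, 1.52 for Ctsg, 3.37 for Prss57, 1.20 for Mpo and 1.11 for Prtn3. These ratios divide separate set medians. Taken within each cell the same quotient is the CPM. The ratio of median CPM was 1.35 for Elane, 1.53 for Ctsg, 3.02 for Prss57, 1.01 for Mpo and 1.12 for Prtn3.

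**Figure D1:**
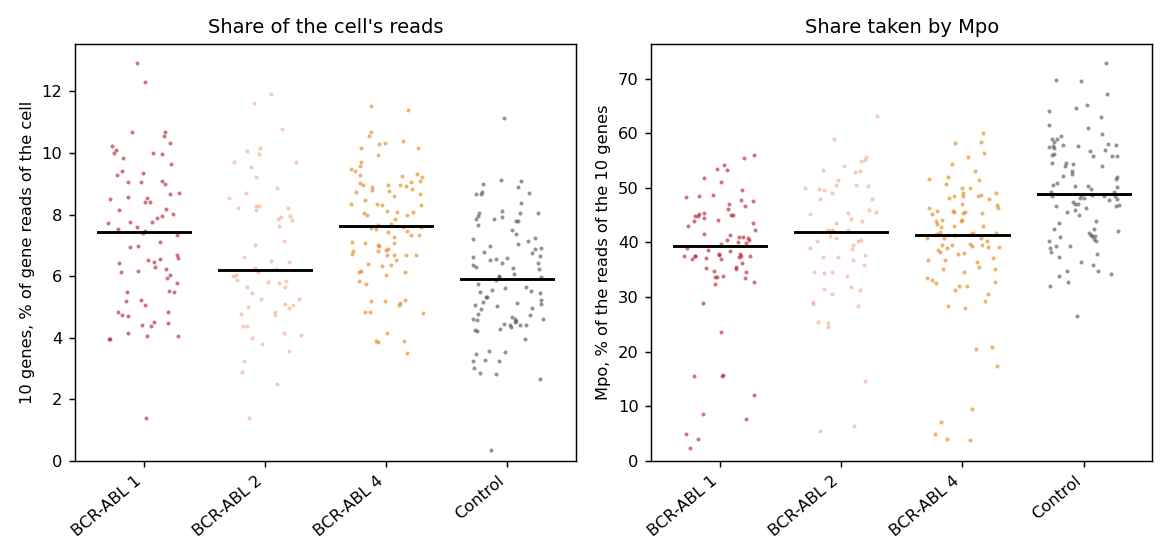
Left, share of a cell's gene reads taken by the 10 genes (%). Right, share of the reads of the 10 genes taken by Mpo (%). Each point is a kept cell, columns are sets and the line is the set's median. The BCR-ABL medians lie at 7.43, 6.19 and 7.63% on the left, above 5.91% in Control, and at 39.3, 41.8 and 41.4% on the right, below 49% in Control.

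Per gene read, most of the 10 genes stood higher in the BCR-ABL sets, but Mpo did not. Mpo took 39.3, 41.8 and 41.4% of the reads of the 10 genes in the median BCR-ABL cell, against 49% in Control, and Elane took 27, 24.7 and 25.6%, against 22.2%. In the set sums, levels per kb of exon followed the order Elane, Ctsg, Mpo, Prtn3, Ms4a3, Nkg7, Cst7, Serpinb1a, Prss57 and Fcnb in BCR-ABL. They were 18251 ± 1180 CPM per kb for Elane, 9680 ± 1139 for Ctsg, 8707 ± 465 for Mpo and 3571 ± 318 for Prtn3 (SD, n = 3 sets). They were 1559 ± 288 CPM per kb for Ms4a3, 1393 ± 130 for Nkg7 and 910 ± 102 for Cst7. At the lower end they were 416 ± 28.7 CPM per kb for Serpinb1a, 225 ± 31.5 for Prss57 and 97.2 ± 35.6 for Fcnb. Ctsg and Mpo, and Ms4a3 and Nkg7, differed by less than the SD of the first of each pair. Ctsg stood above Mpo per kb in each of the 3 BCR-ABL sets, whereas in Control it stood below, at 6569 against 8801 CPM per kb.

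Among the proteases, Elane, neutrophil elastase (ENSMUSG00000020125), had a median of 19428, 14680 and 20191 CPM per cell in BCR-ABL replicates 1, 2 and 4, against 13392 CPM in Control. Its cells ranged from 128 to 61454 CPM in BCR-ABL and from 108 to 34105 CPM in Control, so cells overlapped widely. All 3 BCR-ABL medians lay above that of Control, but replicate 2 lay nearer to Control than to replicates 1 and 4. The SD of the BCR-ABL medians was 2986 CPM. In the sums Elane stood at 17959 ± 1161 CPM (SD, n = 3) in BCR-ABL and 12980 CPM in Control. Its log2 fold change was 0.49 (SE 0.08). Ctsg, cathepsin G (ENSMUSG00000040314), had medians of 10354, 8305 and 10447 CPM in BCR-ABL, against 6338 CPM in Control, with a log2 fold change of 0.58 (SE 0.14). Prss57, a neutrophil serine protease known from human cells (ENSMUSG00000020323), had medians of 591, 518 and 628 CPM in BCR-ABL, against 192 CPM in Control. Its log2 fold change of 1.29 (SE 0.21) was the largest of the 4 proteases. Prtn3, proteinase 3 (ENSMUSG00000057729), had medians of 6255, 6915 and 5778 CPM in BCR-ABL, against 5623 CPM in Control, and in the sums BCR-ABL replicate 4 lay below Control (5553 against 5611 CPM). Its log2 fold change was 0.16 (SE 0.14). Although Prtn3 and Elane are neighbours, the Elane level per cell exceeded that of Prtn3 by a median log2 ratio of 1.62, 1.38 and 1.91 in BCR-ABL and 1.15 in Control.

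Mpo, myeloperoxidase (ENSMUSG00000009350), had the most reads of the 10 genes, and its CPM differed by less than the spread between the BCR-ABL sets. Its medians were 27726, 27343 and 30967 CPM per cell in BCR-ABL, against 28309 CPM in Control, which lay inside the BCR-ABL range. The log2 fold change was 0.00 (SE 0.06), and its sign turned with the scaling, at -0.001 under RLE normalisation. Per spike-in read Mpo was higher in every BCR-ABL set, with medians of 6.76, 7.40 and 7.36 in BCR-ABL and 5.16 in Control. The ratio of these set medians was 1.39, where that of all gene reads was 1.16. Both divide separate medians, so their gap is no rise of Mpo beyond all gene reads. Per gene read in each cell, the ratio of the Mpo medians was 1.01. An antisense gene, Gm11505, overlaps Mpo, Plppr3 overlaps Prtn3 and Fstl3 overlaps Prss57, and with the strand setting not given, reads of such pairs cannot be told apart.

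The inhibitor Serpinb1a (ENSMUSG00000044734) had medians of 894, 778 and 1002 CPM in BCR-ABL, against 456 CPM in Control, and a log2 fold change of 0.82 (SE 0.13). Cst7, cystatin F (ENSMUSG00000068129), had medians of 876, 742 and 1025 CPM in BCR-ABL, against 559 CPM in Control, and a log2 fold change of 0.71 (SE 0.16). Both inhibitors were thus higher in each BCR-ABL set than in Control, as the proteases other than Prtn3 were in the sums. Ms4a3, a membrane protein of the granulocyte/macrophage lineage (ENSMUSG00000024681), had medians of 2930, 2287 and 3341 CPM in BCR-ABL, against 1512 CPM in Control, with a log2 fold change of 0.85 (SE 0.22). Nkg7, a membrane protein first known from granules of natural killer cells (ENSMUSG00000004612), had medians of 1249, 1055 and 1386 CPM in BCR-ABL, against 750 CPM in Control, with a log2 fold change of 0.54 (SE 0.14). The markers of natural killer and T cells were near 0, where the 8 summed markers reached at most 3.39 CPM in a set, and Gzma, Gzmb and Cd3g had no read.

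Fcnb, ficolin-B, a lectin that opens the complement cascade (ENSMUSG00000026835), was the most uneven of the 10. Its median was 18.3, 10.2 and 51.6 CPM in BCR-ABL and 0.846 CPM, about 1 read per cell, in Control. Cells without a read numbered 12 of 76, 11 of 61 and 14 of 92 in the BCR-ABL sets, against 38 of 94 in Control. In the sums it stood at 130 ± 47.6 CPM (SD, n = 3) in BCR-ABL and 29.8 CPM in Control, a log2 fold change of 2.14 (SE 0.53), and 38.5% of the Fcnb reads of BCR-ABL replicate 2 came from 1 cell. Without the cell with the most reads of a gene in each set, all 10 log2 fold changes stayed positive, with a median of 0.65 against 0.64 with all cells.

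**Figure D2:**
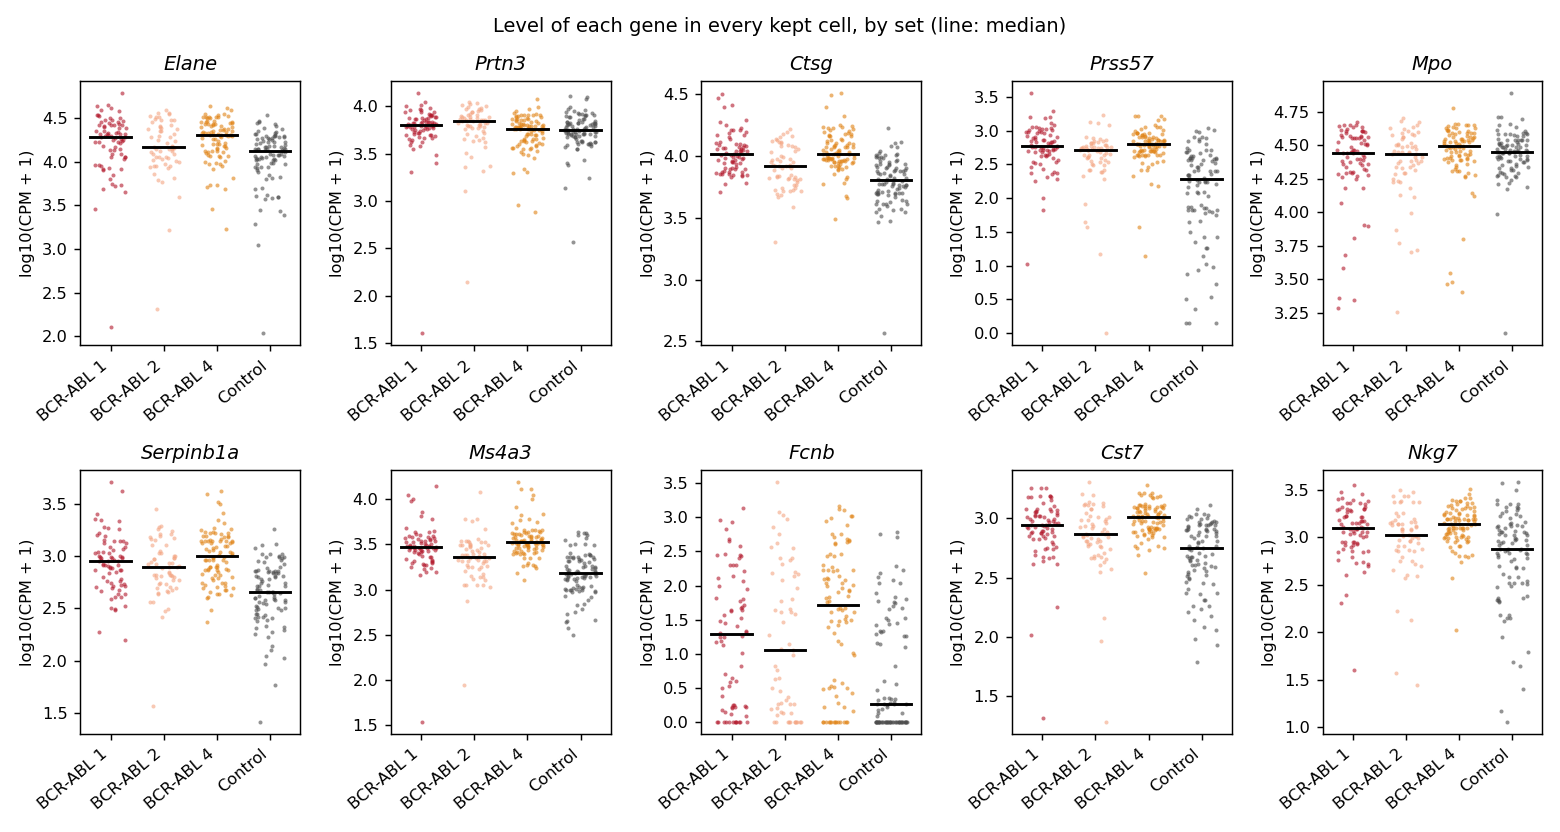
Level of each of the 10 genes in every kept cell, as log10(CPM + 1), with the 3 BCR-ABL sets left of Control. Points are cells and lines are set medians. All 3 BCR-ABL medians lie above that of Control except for Mpo, where Control (28309 CPM) falls between BCR-ABL replicates 1 and 4, and Prss57 has a long tail of low cells in Control.

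Tested across all genes, edgeR's quasi-likelihood test on the set sums called 0 of 20324 genes (0.0%) at an adjusted p under 0.05, so none of the 10 was called. The adjusted p was 0.594 for Elane, Prss57 and Serpinb1a, 0.624 for Cst7, 0.637 for Ctsg, Ms4a3, Fcnb and Nkg7, 0.849 for Prtn3 and 0.998 for Mpo. At an unadjusted p under 0.05 (edgeR), 8 of the 10 genes were higher in BCR-ABL and 0 lower, all but Prtn3 and Mpo, where 3.79% of all genes tested were higher. The 10 genes were chosen with earlier results of these data known, so this count is a description and not independent support. Over all genes 1459 had such a p. DESeq2 called 562 genes, with Prss57, Serpinb1a, Ms4a3, Fcnb and Cst7 among them, and limma-voom called 0. All 10 log2 fold changes were positive (median 0.64), against 54.2% of all genes tested (median 0.05), with the sign of Mpo resting on the scaling. The Control arm is 1 set, so it is assumed to vary as the BCR-ABL sets do, and condition and set cannot be told apart.

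The sets also differed in how many cells carried Gfi1 and Irf8, which moves with these genes, and the part of that in the differences above was not tested. In cells thinned to 674952 gene reads, Gfi1 without Irf8 (at least 10 reads each counting as present) was found in 35 of 65, 17 of 54 and 61 of 81 cells of the BCR-ABL sets, against 8 of 90 in Control. Irf8 without Gfi1 was found in 14, 15 and 0 BCR-ABL cells, against 50 Control cells. Summed over the 10 monocyte markers, the level was 5178, 5908 and 4651 CPM in BCR-ABL sums and 7808 CPM in Control. The share of reads held by the 10 genes was then compared class by class. Among cells with Gfi1 alone the median was 8.53, 7.96 and 7.99% in BCR-ABL and 7.60% in Control. Among cells with both factors it was 6.24, 6.48 and 6.85% in BCR-ABL and 6.47% in Control. Among cells with Irf8 alone it was 4.95 and 5.25% in BCR-ABL replicates 1 and 2, against 5.47% in Control. Over these 3 classes the share ran in the same order in every set that held all 3. The few cells with neither factor (3, 3 and 5 in BCR-ABL and 4 in Control) had medians of 6.97, 6.02 and 9.30% in BCR-ABL, against 3.73% in Control.

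Single genes also differed inside classes. Fcnb had medians of 50.1, 61.6 and 67.6 CPM in BCR-ABL cells with Gfi1 alone, against 1.17 CPM in the 8 such Control cells. Serpinb1a had medians of 984, 1066 and 1070 CPM there in BCR-ABL, against 597 CPM in Control. For Prss57 the gap to Control was wider in cells with Irf8 than in cells with Gfi1 alone. In cells with Irf8 alone its median was 519 and 338 CPM in BCR-ABL replicates 1 and 2, against 139 CPM in Control. In cells with both factors it was 600, 559 and 592 CPM in BCR-ABL, against 285 CPM in Control, and in cells with Gfi1 alone 686, 613 and 621 CPM in BCR-ABL, against 554 CPM in Control. Mpo went the other way in cells with Irf8 alone, at 21605 and 23928 CPM in BCR-ABL, against 27882 CPM in Control. Elane was likewise lower there, at 9971 and 11509 CPM in BCR-ABL, against 12106 CPM in Control. These class medians have no test.

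Sums over all Gfi1-positive cells (48, 36 and 76 BCR-ABL and 36 Control cells) and over all Irf8-positive cells (27, 34 and 15 BCR-ABL and 78 Control cells) were tested in the same way, and cells with both factors are in each. In Gfi1-positive cells edgeR called 0 of 18763 genes (0.0%), and 8 of the 10 were higher at an unadjusted p under 0.05 with 0 lower, against 6.23% of all genes. The log2 fold changes there were 0.40 (SE 0.05) for Elane, 0.49 (SE 0.08) for Ctsg, 0.80 (SE 0.15) for Prss57 and 0.81 (SE 0.10) for Serpinb1a. In Irf8-positive cells edgeR called 0 of 18013 genes (0.0%), and 5 of the 10 were higher at an unadjusted p under 0.05 with 0 lower, namely Ctsg, Prss57, Serpinb1a, Ms4a3 and Cst7, against 2.27% of all genes. At an unadjusted p under 0.05 stood 1813 and 866 genes, and DESeq2 called 745 and 235. In Irf8-positive cells the log2 fold change of Elane was 0.13 (SE 0.17) and that of Mpo -0.10 (SE 0.08). Whether the effects differ between the classes was not tested. Here too the counts are descriptions, as the 10 genes were chosen with earlier results of these data known.

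The spread between cells was the second measure. Prtn3, Mpo and Ctsg were among the most even genes of 100 CPM or more in these cells. The genes compared were not matched for level, and the part of level in this evenness was not tested. The coefficient of variation (CV) of Prtn3 was 0.328, 0.363 and 0.347 in BCR-ABL and 0.363 in Control, and at most 10% of 1684 genes with a mean of 100 CPM or more in every set were more even in any set. Mpo had a CV of 0.421, 0.421 and 0.342 in BCR-ABL and 0.345 in Control. For Ctsg, 6.5, 4.6 and 7.1% of the 1684 genes were more even in BCR-ABL and 12.8% in Control. For scale, the 10 most read spike-in species, taken as shares of the spike-in reads of a well, had a median CV of 0.347, 0.358 and 0.364 in BCR-ABL sets and 0.397 in Control. The 1684 genes had a median CV of 0.705, 0.670 and 0.653 in BCR-ABL and 0.607 in Control. Prss57, Nkg7, Cst7 and Fcnb were more even in each BCR-ABL set than in Control, and Ms4a3 was less even in each. Ms4a3 had a CV of 0.634, 0.644 and 0.608 in BCR-ABL and 0.541 in Control. Elane, Ctsg, Mpo and Serpinb1a were less even than Control in 2 BCR-ABL sets. Cst7 had a CV of 0.416, 0.475 and 0.293 in BCR-ABL and 0.524 in Control. Prss57 had a CV of 0.720, 0.604 and 0.486 in BCR-ABL and 0.988 in Control, where 96.3% of the 1684 genes were more even. Nkg7 had a CV of 0.519, 0.609 and 0.406 in BCR-ABL and 0.828 in Control, where 86.5% were more even. Fcnb was the most uneven, with a CV of 2.07, 2.65 and 1.67 in BCR-ABL and 2.76 in Control. Over the 10 genes the median CV differed by -0.024 between the mean of the BCR-ABL sets and Control, with an SD of the BCR-ABL sets of 0.072.

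The order in which the genes were on was the third, a snapshot over cells and not a time course. A gene was called on in a thinned cell at 10% or more of its own 95th percentile over all kept cells. Intervals are exact (Clopper-Pearson, 95%) and cover counting error only. The percentile pools all sets, so the share on follows a gene's level and is not separate from the level differences above. A cell under the limit, called off, may still hold reads of the gene. Ctsg was on in 100% of cells of each BCR-ABL set and in 98.9% of Control cells, Prtn3 in 98.5, 98.1 and 98.8% of BCR-ABL and 98.9% of Control cells, and Mpo in 98.5, 100 and 96.3% of BCR-ABL and 98.9% of Control cells. Prss57 was on in 98.5, 94.4 and 100% of cells in BCR-ABL sets, against 63.3% in Control (interval 52.5 to 73.2%). The lowest BCR-ABL bound was 84.6%, but these intervals hold no spread between sets and Control is 1 set. The Prss57 limit was 120 CPM, against a Control median of 192 CPM, and 0 of 94 kept Control cells lacked a Prss57 read. Nkg7 was on in 98.5, 98.1 and 100% of cells in BCR-ABL sets, against 81.1% in Control (71.5 to 88.6%). Serpinb1a was on in 100% of cells of each BCR-ABL set, against 90% of Control cells. Fcnb came last, on in 26.2, 31.5 and 46.9% of cells in BCR-ABL sets, against 11.1% in Control (5.5 to 19.5%). Averaged over the 10 genes the share was 10.45 percentage points higher in BCR-ABL (SD of the 3 sets 1.31).

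**Figure D3:**
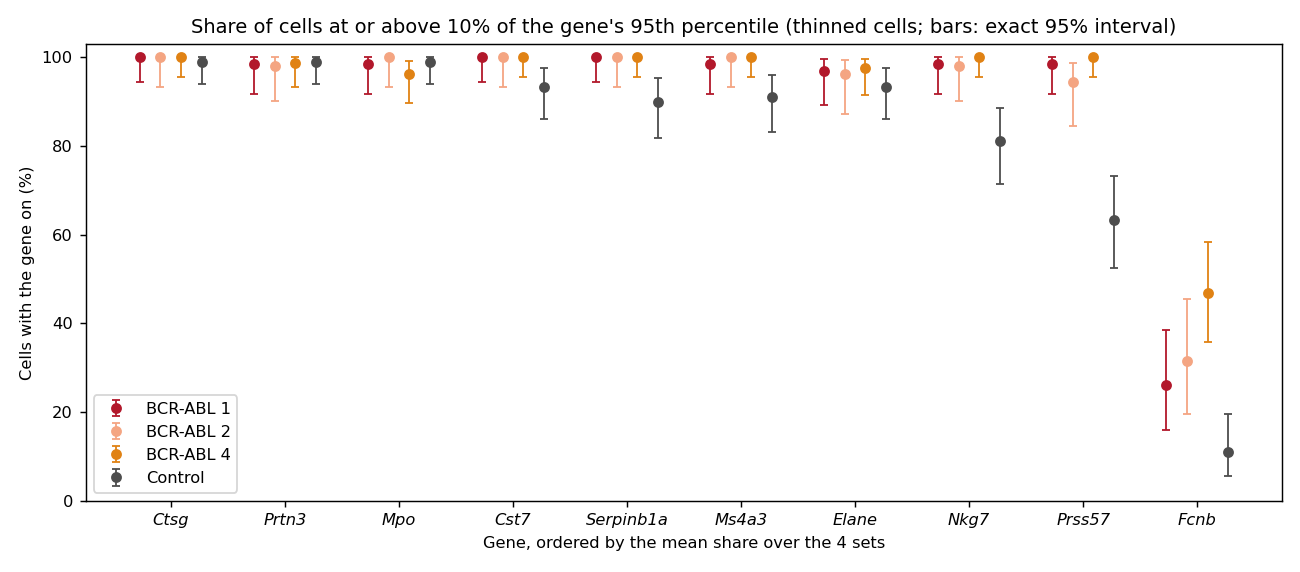
Share of thinned cells with each gene on (%), genes ordered by the mean share over the 4 sets. Points are sets, BCR-ABL left of Control, and bars are exact 95% intervals. The limit for on pools all sets, so the share follows the level of the gene. Prss57 (at least 94.4% in BCR-ABL sets, 63.3% in Control) and Nkg7 (at least 98.1% in BCR-ABL sets, 81.1% in Control) stand apart from the other common genes, and Fcnb is last in every set.

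In BCR-ABL, 62 of 65, 49 of 54 and 75 of 81 cells had all 9 genes other than Fcnb on, against 49 of 90 Control cells, that is 95.4, 90.7 and 92.6% against 54.4%. In Control 32 cells had Ctsg on and Prss57 off, and 0 had Prss57 on and Ctsg off. Prtn3 and Mpo each gave the same counts against Prss57 in Control, 32 cells and 0. Of the 45 pairs of genes, 11 had the same order in all 4 sets, namely the 9 pairs with Fcnb last, Ctsg before Elane and Prtn3 before Elane. The pairs with Elane rest on few cells. Ctsg was on without Elane in 2 cells of each BCR-ABL set and 5 Control cells, and the reverse was found in 0 cells. In every set some of these cells reached 1000 CPM of basophil and mast cell markers. The others held 1634 to 2861 CPM of Elane, under its limit of 3413 CPM. Prtn3 was on without Elane in 1, 1 and 2 BCR-ABL cells and 5 Control cells, and the reverse was found in 0, 0 and 1 BCR-ABL cells and 0 Control cells. At a limit of 3% of the 95th percentile, 9 pairs had the same order in all 4 sets. Cells were also ranked by the summed level of the other 9 genes and cut into 3 equal bands over all sets. In the lowest band Prss57 was on in 94.4, 85.7 and 100% of cells in BCR-ABL sets (n = 18, 21 and 13), against 40% of 45 Control cells. In the middle band it was on in 100% of each BCR-ABL set, against 81.2% of 32 Control cells, and in the highest band in all cells of every set. The Prss57 difference was therefore largest among cells with the least of the other granule transcripts. Fcnb was on in 50, 61.1 and 76.3% of cells in BCR-ABL sets for the highest band, against 38.5% of 13 Control cells, and in 0.0, 14.3 and 0.0% of cells in BCR-ABL sets for the lowest band, against 2.2% in Control.

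The 10 genes were correlated across cells within each set. Correlations below are Spearman's rho of CPM over the cells of 1 set, and are descriptions, since cells are not replicates of a condition. The median over the 45 pairs was 0.33, 0.41 and 0.27 in BCR-ABL replicates 1, 2 and 4 (n = 76, 61 and 92 cells) and 0.47 in Control (n = 94 cells). In thinned cells it was 0.47, 0.47 and 0.31 in BCR-ABL and 0.45 in Control, and in Gfi1-positive cells 0.45, 0.51 and 0.29 in BCR-ABL and 0.45 in Control, so the lower value of BCR-ABL replicates 1 and 2 was not seen there. The same genes against 1675 other genes of 100 CPM or more gave medians from -0.04 to -0.02. Ctsg and Ms4a3 formed the pair with the highest mean over the 4 sets, at 0.64, 0.76 and 0.55 in BCR-ABL and 0.68 in Control, followed by Elane and Nkg7 at 0.65, 0.62 and 0.41 in BCR-ABL and 0.60 in Control. The neighbours Elane and Prtn3 gave 0.20, 0.54 and 0.43 in BCR-ABL and 0.63 in Control. Mpo and Ms4a3 gave -0.01, 0.20 and -0.22 in BCR-ABL, against 0.48 in Control, and Mpo and Ctsg 0.18, 0.25 and -0.01 in BCR-ABL, against 0.47. In thinned cells, which leave out the shallowest wells, the values for Mpo and Ctsg were 0.57, 0.33 and 0.13 in BCR-ABL and 0.51 in Control. For Mpo and Ms4a3 they were 0.31, 0.37 and -0.11 in BCR-ABL and 0.45 in Control. For both pairs the gap to Control was smaller there for all 3 BCR-ABL sets. Prss57 and Ms4a3 gave 0.24, 0.27 and 0.05 in BCR-ABL, against 0.61 in Control. Fcnb went the other way with Serpinb1a, at 0.50, 0.48 and 0.46 in BCR-ABL, against 0.03 in Control.

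**Figure D4:**
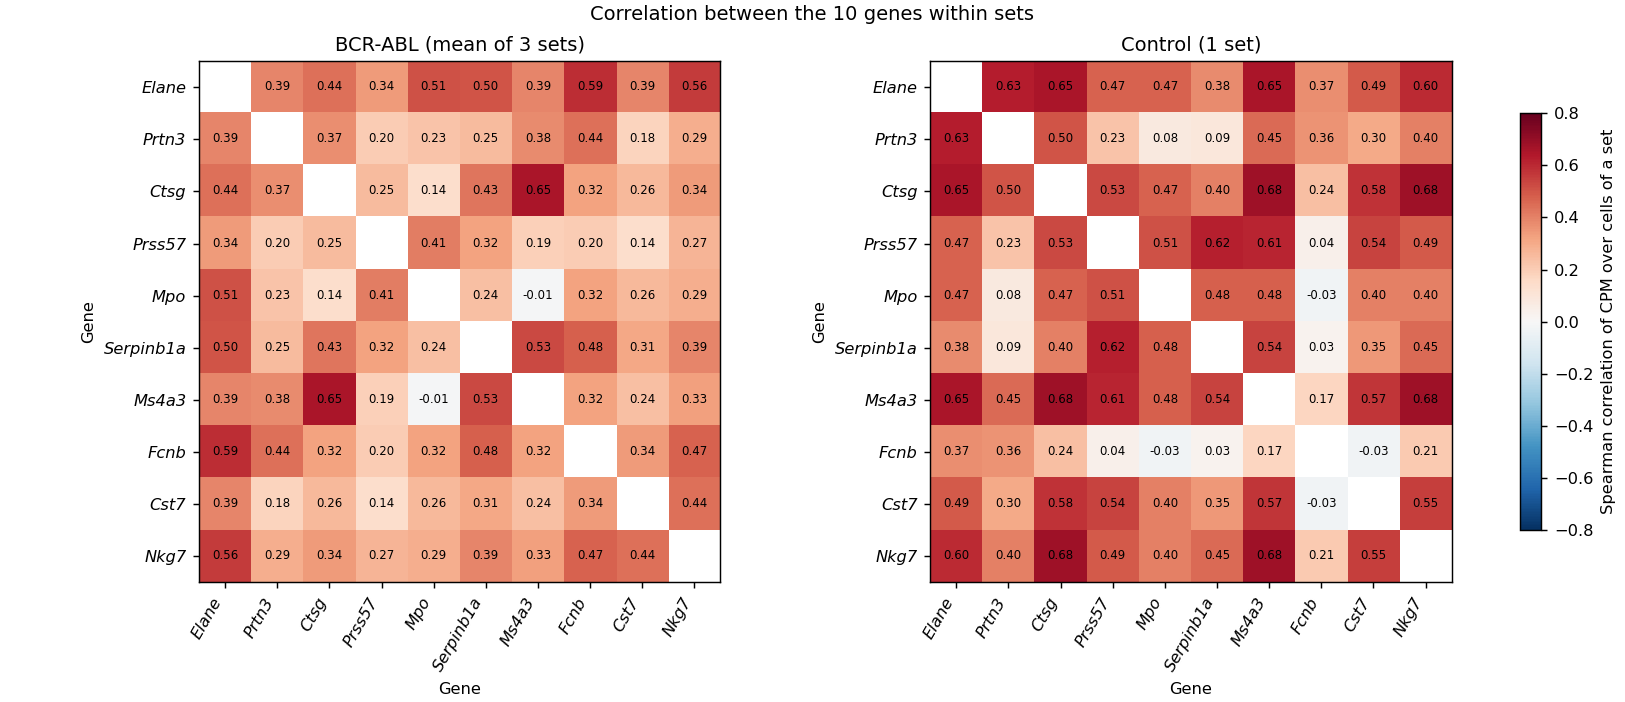
Spearman correlation of CPM over cells for each pair of the 10 genes, as the mean of the 3 BCR-ABL sets (left) and in Control (right). Ctsg and Ms4a3 reach 0.65 in BCR-ABL and 0.68 in Control, while Mpo and Ms4a3 stand at -0.01 in BCR-ABL and 0.48 in Control. In thinned cells, not drawn, Mpo and Ms4a3 gave 0.31, 0.37 and -0.11 in the BCR-ABL sets and 0.45 in Control.

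A group of BCR-ABL cells had little Mpo and much Ctsg. Mpo lay under its limit of 4464 CPM in 4 of 76, 1 of 61 and 4 of 92 cells of BCR-ABL replicates 1, 2 and 4, and in 1 of 94 Control cells (1.1%). Pooled over the BCR-ABL sets this was 9 of 229 cells (3.9%), though BCR-ABL replicate 2 had 1 such cell, as Control had. Of these, 1 BCR-ABL and 1 Control cell carried basophil and mast cell markers. The other 8 BCR-ABL cells had a median of 27263 CPM of Ctsg (13758 to 32308) and of 10373 CPM of Ms4a3 (4847 to 15591), against 9774 and 3042 CPM over all BCR-ABL cells. Each of the 8 lay above the Ctsg and Ms4a3 medians of its own set, while their Elane ran from 5121 to 44200 CPM (median 9697), on both sides of the median of 19259 CPM over all BCR-ABL cells. They had 83380 to 1014684 gene reads (median 527789), against a median of 1566320 over all BCR-ABL cells, and 5 of the 8 lay under the thinned depth. The part of depth or RNA quality in this pattern was not tested. Over all kept cells, Ctsg exceeded Mpo in 9 of 76, 3 of 61 and 8 of 92 BCR-ABL cells and in 0 of 94 Control cells. These counts are not matched for depth, with 11, 7 and 11 BCR-ABL cells and 4 Control cells under the thinned depth. Medians in those shallow cells were 18745, 8270 and 14747 CPM of Ctsg in BCR-ABL and 7241 CPM in Control. For Mpo they were 7892, 7401 and 24578 CPM in BCR-ABL and 30705 CPM in Control.

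**Figure D5:**
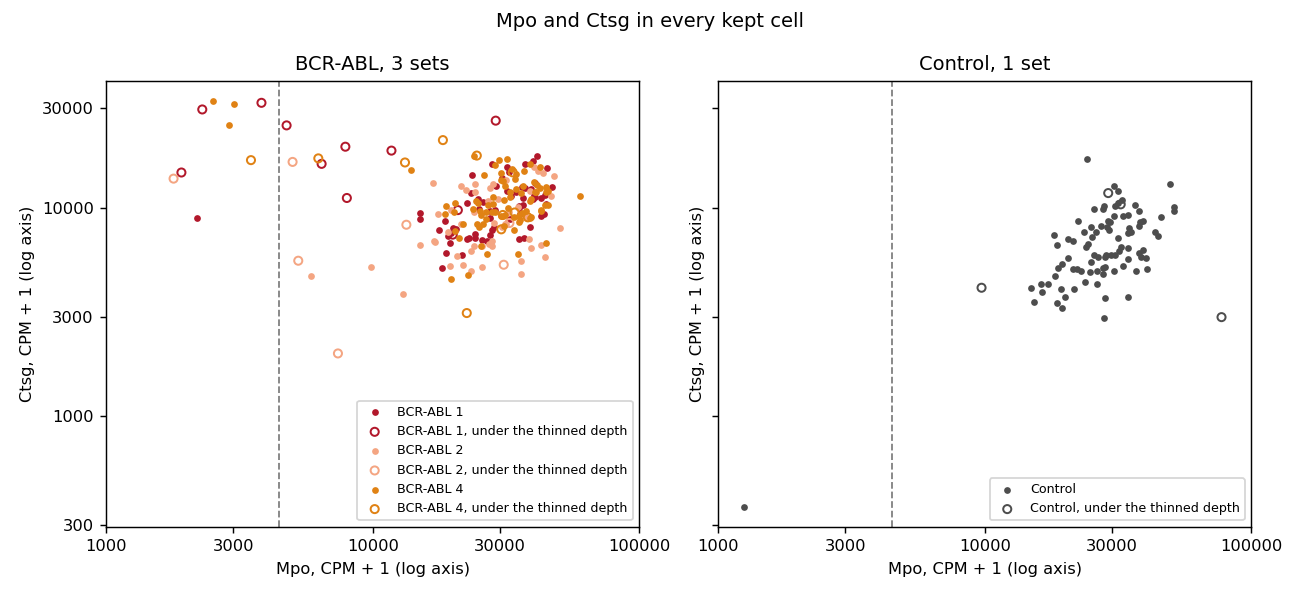
Ctsg (CPM + 1, log axis) against Mpo (CPM + 1, log axis) in every kept cell, BCR-ABL sets left and Control right. Open circles are cells under the thinned depth of 674952 gene reads, and the dashed line is the Mpo limit of 4464 CPM. The 8 cells at upper left in BCR-ABL have 13758 to 32308 CPM of Ctsg, and Control has no cell there.

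Some cells carried markers of other lineages, and their granule transcripts differed. The 6 basophil and mast cell markers summed to 313, 516 and 266 CPM in BCR-ABL sums and 408 CPM in Control, and reached 1000 CPM in 2, 6 and 5 BCR-ABL cells and 5 Control cells. A BCR-ABL replicate 1 cell with 3248 CPM of Mcpt8 and 1873 CPM of Ms4a2 had 128 CPM of Elane, 39.2 CPM of Prtn3 and 2195 CPM of Mpo, but 8877 CPM of Ctsg and 1348 CPM of Cst7. A BCR-ABL replicate 2 cell with 5022 CPM of Mcpt8 had 203 CPM of Elane and 4676 CPM of Ctsg. A Control cell with 6304 CPM of Mcpt8 had 1957 CPM of Elane, 8517 CPM of Ctsg and 29426 CPM of Mpo. In these 3 cells, picked after their values were seen, Elane lay far below the median of the set. Ctsg lay less far below it in the BCR-ABL cells (set medians 10354 and 8305 CPM). In the Control cell Ctsg lay above the set median of 6338 CPM. Another Control cell, with 1275 CPM of Gata2 and 341 CPM of Ms4a2, had little of either, at 108 CPM of Elane and 368 CPM of Ctsg. A single BCR-ABL replicate 4 cell carried 111475 CPM of Prg2 and 34450 CPM of Epx, genes of eosinophil granules, with 4872 CPM of Elane and 22842 CPM of Mpo. Without all cells that reached 1000 CPM of basophil and mast or eosinophil markers, the 10 genes held 7.50, 6.27 and 7.85% of reads in the median BCR-ABL cell, against 5.97% in Control.

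Other genes were ranked by their correlation with the summed level of the 10, as the mean over the 4 sets, among 7034 protein-coding genes read in at least 50% of the cells of every set. The highest were Gstm1, a glutathione transferase (0.60), Clec12a, an inhibitory lectin receptor of myeloid cells (0.59), Srgn, the proteoglycan core of granules (0.59), and Lta4h, which makes leukotriene B4 (0.57). They were followed by Clec4a2 (0.53), Ptgr1, a prostaglandin reductase (0.52), Rgcc (0.51), Rnaset2a, a lysosomal ribonuclease (0.50), Hsd11b1, which activates glucocorticoids (0.50), and S100a8 (0.50). The lowest were S100a10, a partner of an annexin (-0.57), the interferon-induced membrane genes Ifitm1 (-0.51) and Ifitm3 (-0.48), Tmsb10, which binds actin (-0.51), and the fatty acid carrier Fabp5 (-0.47). Srgn stood at 3813 ± 706 CPM (SD, n = 3) in BCR-ABL and 2094 CPM in Control. Of the regulators, Gfi1 correlated with the sum at 0.48, 0.39 and 0.26 in BCR-ABL and 0.27 in Control, Cebpe at 0.47, 0.52 and 0.28 in BCR-ABL and 0.45 in Control, and Irf8 at -0.48, 0.00 and -0.12 in BCR-ABL and -0.35 in Control. Cd34 gave -0.41, -0.35 and -0.46 in BCR-ABL and -0.14 in Control. Fcnb followed S100a8, a calcium-binding protein of neutrophils, at 0.67, 0.72 and 0.74 in BCR-ABL and 0.44 in Control, and ran against Cd34 at -0.59, -0.55 and -0.55 in BCR-ABL and -0.37 in Control.

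Other granule genes did not all go the same way. For scale, 54.2% of all 20324 genes tested had a positive log2 fold change (median 0.05). At an unadjusted p under 0.05 (edgeR) stood 1459 of all genes, 771 of them higher in BCR-ABL and the rest lower. Of 10 genes of granule packing and processing, 7 had a positive log2 fold change (median 0.10), 2 stood higher and 1 lower with an unadjusted p under 0.05 (edgeR), and 0 passed the adjustment. Cd63, a granule membrane tetraspanin, had a log2 fold change of 1.32 (SE 0.35), Srgn 0.88 (SE 0.23) and Lamp1, a lysosomal membrane protein, -0.62 (SE 0.23). Among 11 other proteins of primary granules or lysosomes, 7 were positive (median 0.09), 1 was higher and 2 lower at that p. Lyz2, lysozyme, stood at 371 ± 95.1 CPM (SD, n = 3) in BCR-ABL and 936 CPM in Control, a log2 fold change of -1.31 (SE 0.28), and Ctsd, cathepsin D, had one of 0.37 (SE 0.12). Of 10 other protease inhibitors 6 were positive (median 0.67), 0 were higher and 3 lower at that p, namely Cst3 (-0.64, SE 0.13), Serpinf1 (-1.22, SE 0.25) and Slpi (-1.01, SE 0.36). Of 11 regulators 6 were positive (median 0.04), with Cebpe (1.09, SE 0.24) and Gfi1 (1.49, SE 0.42) higher at that p and 0 lower. Of 14 late granule genes 12 were tested, 10 were positive (median 1.63), and 7 were higher and 0 lower at that p, against 3.79% of all genes higher. All these lists were chosen with earlier results of these data known, so their counts are descriptions. Lrg1, a glycoprotein of neutrophil granules, stood at 35.4 ± 3.22 CPM in BCR-ABL and 3.82 CPM in Control, and Lcn2, which binds bacterial siderophores, at 401 ± 132 CPM in BCR-ABL and 46.1 CPM in Control (SD, n = 3).

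No other gene near the Elane, Ctsg and Mpo loci reached an unadjusted p under 0.05. Of 12 other tested genes whose lower coordinate lies within 100 kb of that of Elane, 6 had a positive log2 fold change (median -0.06) and 0 had an unadjusted p under 0.05 (edgeR), whether higher or lower. Cfd, complement factor D, which starts 4.6 kb from Elane, gave 0.365, 0.503 and 0.440 CPM in BCR-ABL sums and 0.551 CPM in Control. For Med16, whose lower coordinate lies 8.5 kb away, the log2 fold change was -0.23 (SE 0.17). Beside Ctsg 2 tested genes had a median of 0.11, and beside Mpo 9 tested genes had a median of 0.30, with 0 at an unadjusted p under 0.05 at either locus. Lpo, lactoperoxidase, whose lower coordinate lies 12.8 kb from that of Mpo, gave 1.04, 2.45 and 2.88 CPM in BCR-ABL sums and 0.458 CPM in Control.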

How the data were processed

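Single cells were sequenced by SMART-seq2, and the authors deposited raw read counts per Ensembl gene for each well. Per the submitters' processing notes, GSNAP, HTSeq 0.5.3p3 and mm10 were used. For the annotation release and strand setting, none is given in the sources used here. Of all deposited reads 44.9% were in genes, 40.9% were not aligned, 6.24% ambiguous, 7.67% in no feature and 0.265% on 92 spike-in species, and only gene rows entered the library sizes and the tests. A well was kept with at least 50000 gene reads and 1000 genes, which held for 323 of 384. Symbols came from GENCODE vM21 for 45229 of 46078 IDs.

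Counts of kept cells were summed per set, 3 BCR-ABL sets and 1 Control set, and tested with edgeR 4.0.16 (R 4.3.3; TMM, filterByExpr, quasi-likelihood, Benjamini-Hochberg adjustment over all genes tested, two-sided) on 2 residual degrees of freedom, with SE computed as the log2 fold change over the square root of F. This takes the spread of Control, which is 1 set, to be that of the BCR-ABL sets. The test was checked on simulated counts. Cells were thinned to 674952 gene reads, the 10th percentile, which left out 33 (11, 7 and 11 in the BCR-ABL sets and 4 in Control). No doublet caller was run. Alternatives used DESeq2 1.42.0 and limma 3.58.1, and other computation Python 3.11.15 with scipy 1.17.1. The 10 genes and all lists were chosen with earlier results of these data known. Genes outside the 10 were named by fixed rules, namely the 10 highest and 5 lowest correlations with the sum of the 10, up to 4 genes of each list with the smallest unadjusted p, and neighbours within 100 kb. Cfd, Med16 and Lpo among the neighbours, the partners of Fcnb, and single cells were picked after their values were seen.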

Additional observations from a re-analysis of the deposited data

Results flagged for a closer look

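Transcripts of the 10 genes were also found in the wells left out for low depth, which enter no comparison. The median well had 591.5 reads of the 10 genes in BCR-ABL replicate 1 (20 wells), 190.0 in BCR-ABL replicate 2 (35 wells), 369.5 in BCR-ABL replicate 4 (4 wells) and 1086.5 in Control (2 wells). Every one of these wells exceeded the 3 reads that a count of 0 allows. Relative to the median kept cell of the same set this was 0.561, 0.148 and 0.347% in the BCR-ABL sets and 1.54% in Control. Prss57 had a median of 6, 2 and 4 reads in such BCR-ABL wells and 6.5 in such Control wells, against the limit of 80.8 reads at which it was called on. Whether these reads came from cells or from RNA shared between wells was not tested.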

How the results depend on the processing

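Among the main results, 41 of the 47 alternative values were labelled as unchanged and 6 moved further. Unchanged means the same direction and a move under 1 SD of the BCR-ABL sets (4 sets for co-expression), or under 1.5 times for counts. Most of the 41 are counts of genes called by edgeR or limma-voom that stayed at 0. Such counts have no direction, so the tally says little about the other results. The mean share of cells with a gene on, 10.45 points higher in BCR-ABL, became 6.67 points with a common limit of 100 CPM and 12.25 points with 1000 CPM. The 11 pairs with the same order of onset in all 4 sets became 25 at a limit of 30% of the 95th percentile and 9 at 3%. DESeq2 called 562 genes in all cells, 745 in Gfi1-positive and 235 in Irf8-positive cells, against 0 by edgeR in each, and the cause was not tested. Without 1 BCR-ABL set in turn, edgeR called 0 to 0 genes in each of the 3 selections, and the share difference of 1.17 points ranged from 0.894 to 1.62. The highest value was without BCR-ABL replicate 2 and the lowest without BCR-ABL replicate 4. Among single genes, 258 values kept their direction and side of the threshold, 15 passed it under DESeq2 alone and 7 turned sign. In all cells Mpo, at 0.003, turned to -0.001 under RLE, -0.003 without a filter on low counts, -0.001 under DESeq2 and -0.029 without BCR-ABL replicate 4, with 0.029 at most when 1 set was left out. In Gfi1-positive cells Mpo, at -0.006, turned to 0.012 without that filter and 0.135 at a class limit of 30 reads, and Prtn3, at 0.074, to -0.016 without BCR-ABL replicate 2 and 0.17 without replicate 4. Fcnb in Irf8-positive cells ranged from 0.10 to 1.68 without 1 set in turn. Without BCR-ABL replicate 1, 7 of the 10 genes were higher at an unadjusted p under 0.05, and without replicate 4 there were 9. Leaving out the cells with other-lineage markers, gave 1.23 points, Gfi1-positive cells alone 0.847 and Irf8-positive cells alone 0.433, which is under the SD of 0.783, all 3 chosen after seeing the data. The CV difference of -0.024 became -0.048 without the highest cell of each set and -0.074 in thinned cells, the second chosen after seeing the data. No paired analysis was possible because Control is 1 set and shares no second replicate number with BCR-ABL. Depth limits Fcnb most, since the Control median is about 1 read per cell.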

Other observations

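Some relations among the 10 genes belong in no comparison of the report. Elane exceeded Mpo, per gene read and without regard to length, in 12 of 76, 13 of 61 and 18 of 92 BCR-ABL cells and in 3 of 94 Control cells. These counts are not matched for depth, with 11, 7 and 11 BCR-ABL cells and 4 Control cells under the thinned depth. Medians in those shallow cells were 21512, 13215 and 21362 CPM of Elane in BCR-ABL and 19191 CPM in Control. For Mpo they were 7892, 7401 and 24578 CPM in BCR-ABL and 30705 CPM in Control. The median log2 ratio of Elane to Mpo was -0.57, -0.79 and -0.64 in BCR-ABL and -1.21 in Control, and that of Ms4a3 to Mpo was -3.32, -3.52 and -3.23 in BCR-ABL and -4.18 in Control. The ratio of the inhibitor Serpinb1a to Elane was -4.31, -4.39 and -4.19 in BCR-ABL and -4.68 in Control. For Fcnb and Lcn2, the neutrophil lipocalin, the correlation over cells was -0.14, -0.18 and -0.34 in BCR-ABL and 0.20 in Control, although both stood higher in the BCR-ABL sums. All 10 genes were on in 17, 17 and 37 thinned BCR-ABL cells and in 9 Control cells.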
